A study of Rattus norvegicus with 18 samples.

Results

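The endothelial and angiopoietin genes described here are 8 named rows of the count table: the ligands Angpt1 and Angpt2, the receptors Tek, Kdr and Flt1, the junction proteins Pecam1 and Cdh5, and the secreted protein Vwf. They were chosen by symbol, not by a rule on measured values, but with earlier results of these data known. All 8 were present among the 17337 genes of the table, and all 8 were among the 11814 that passed the filter on low counts. Their level and their order across scaffolds and weeks were followed in 18 bulk RNA libraries.

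The libraries came from wild-type rats with a critical-size gap in the radius that had been bridged by a printed scaffold. Every scaffold was made of polycaprolactone, a slowly degrading polyester, so all 6 groups share that polymer. PCL is the bare polymer, CaP is the polymer carrying calcium phosphate microparticles, and ACPC-NP is the polymer carrying nanoparticles of amorphous calcium phosphate and chitosan. Each scaffold was sampled at weeks 2 and 6 after implantation, with 3 libraries per scaffold and week. The labels used here do not state the strain, sex or age of the animals. The labels describe polyadenylated RNA of cells freed by enzymes from marrow and bone up to 1 mm beyond each scaffold end, after lysis of red cells. The series has no group without a scaffold and no group of intact bone, so each value is read against another scaffold or the other week. The labels do not tie libraries to animals, and the p-values then measure the spread between libraries, which may be technical.

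Total counts ran from 18880604 to 27186587 per library. The third ACPC-NP library of week 2 stood apart: its score on principal component 1 (26.1% of variance) was -91.4, with the others between -25.5 and 23.9, and its TMM scaling factor was 0.706. Hypoxia response genes summed to 14685 CPM in that library and to between 1647 and 3038 CPM in the others. Some of the angiopoietin, correlation and list results that include it are also given without it. Others, among them the list medians and the Angpt2 difference from the mean at week 2, are given only with it.

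Blood vessels grow into a bone defect ahead of bone. The receptor tyrosine kinases Kdr and Flt1 bind vascular endothelial growth factors: Kdr carries most of the growth and permeability signal, and Flt1 binds the ligand tightly and can act as a decoy. Tek, also called Tie2, binds the angiopoietins, of which Angpt1 activates it and steadies vessels, while Angpt2, made largely by endothelial cells, opposes or replaces Angpt1 depending on the setting. Pecam1 (CD31) and Cdh5 (VE-cadherin) hold endothelial cells together, and Vwf (von Willebrand factor) tethers platelets. Several of these genes are not exclusive to endothelium: platelets and leukocytes carry Pecam1, megakaryocytes make Vwf, monocytes can make Flt1, blood stem cells carry Tek, and Angpt1 comes mainly from mural, stromal and blood-forming cells.

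The promoters of the growth factor receptors Kdr and Flt1 are shown because only these 2 of the 8 genes had one in the reference used. The sequences are from RefSeq on build GRCr8, the 250 bases before the gene's start, read 5′ to 3′ on the plus strand, on which both lie. Kdr is at chr14:32571813-32572062 and Flt1 at chr12:12333180-12333429. Capitals mark GGAA or its reverse complement TTCC, the core letters bound by ETS factors, a family with several endothelial regulators.
Kdr: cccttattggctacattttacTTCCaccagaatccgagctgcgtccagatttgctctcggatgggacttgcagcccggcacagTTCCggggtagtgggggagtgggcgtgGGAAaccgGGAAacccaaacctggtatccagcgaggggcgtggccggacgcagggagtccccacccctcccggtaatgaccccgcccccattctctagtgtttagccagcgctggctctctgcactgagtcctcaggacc
Flt1: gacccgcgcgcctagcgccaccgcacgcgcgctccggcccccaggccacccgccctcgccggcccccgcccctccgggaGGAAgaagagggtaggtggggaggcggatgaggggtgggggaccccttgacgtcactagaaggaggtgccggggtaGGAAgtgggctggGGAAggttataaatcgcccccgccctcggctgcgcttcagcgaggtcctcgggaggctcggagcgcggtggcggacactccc
The Kdr window held 4 such matches and the Flt1 window 3, at a GC content of 61.6% and 73.2%. The letters are common: 93.2% of 33469 rat promoter windows of this length held at least 1, with a median of 3. The hypoxia core ACGTG, searched on both strands, was found 0 times in either window and in 16.6% of all windows. GATA, also searched on both strands, was found 1 time in Kdr and 0 times in Flt1, and in 55.9% of all windows. No motif was tested for use in these tissues. The table held promoters for 2 of the 8 genes.

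Angpt2 was lower around ACPC-NP than around the other scaffolds at week 2 and higher than around PCL at week 6, differences that did not pass the test across all genes. It had the smallest unadjusted p of the 8 genes in all 14 comparisons, which share libraries with one another. Values are CPM (reads scaled to library size, with TMM factors), in replicates 1, 2 and 3. Around ACPC-NP it was 6.30, 7.14 and 5.89 CPM at week 2 and 11.9, 13.3 and 16.3 CPM at week 6. Around CaP it was 7.89, 8.11 and 9.03 CPM at week 2 and 10.2, 12.4 and 8.83 CPM at week 6. Around PCL it was 8.32, 9.50 and 12.7 CPM at week 2 and 11.5, 7.20 and 6.58 CPM at week 6. The 3 ACPC-NP libraries of week 2 were below all 6 others of that week, and the 3 of week 6 were above all 3 PCL libraries of that week and overlapped CaP. Such separation was common: 8.34% of all tested genes separated ACPC-NP from the 6 others at week 2, and 27.0% separated it from PCL at week 6. The group means thus ran ACPC-NP, CaP, PCL from low to high at week 2 (6.44 ± 0.634, 8.35 ± 0.604 and 10.2 ± 2.27 CPM, SD, n = 3 each) and in the opposite order at week 6 (13.8 ± 2.27, 10.5 ± 1.81 and 8.43 ± 2.69 CPM). In that order of all 6 groups, each neighbour overlapped the next except CaP and ACPC-NP at week 2.

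Fitted log2 differences of Angpt2, with standard errors and p-values adjusted over all 11814 genes by edgeR's quasi-likelihood test, were as follows. ACPC-NP minus PCL was -0.66 ± 0.22 at week 2 (95% interval -1.13 to -0.18, adjusted p = 0.162) and 0.71 ± 0.22 at week 6 (interval 0.24 to 1.19, adjusted p = 0.098). Week 6 minus week 2 was 1.10 ± 0.22 around ACPC-NP (interval 0.62 to 1.58, adjusted p = 0.087), which placed Angpt2 at rank 18 of 11814 by p. The same step was 0.33 ± 0.22 around CaP and -0.27 ± 0.22 around PCL, and over the 3 scaffolds together 0.39 ± 0.13 (adjusted p = 0.185). The change of the ACPC-NP minus PCL difference between the weeks, the interaction term, was 1.37 ± 0.31 (interval 0.70 to 2.04, adjusted p = 0.278), again rank 18 of 11814, and against CaP it was 0.78 ± 0.31 (adjusted p = 0.317). Against the mean of both other scaffolds, ACPC-NP differed by -0.51 ± 0.20 at week 2 (adjusted p = 0.158) and 0.56 ± 0.19 at week 6 (adjusted p = 0.132). None of these passed 0.05. Without the library that stood apart, the week 2 difference from PCL was -0.61, the step with time around ACPC-NP 1.06 and the interaction 1.34.

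**Figure D1:**
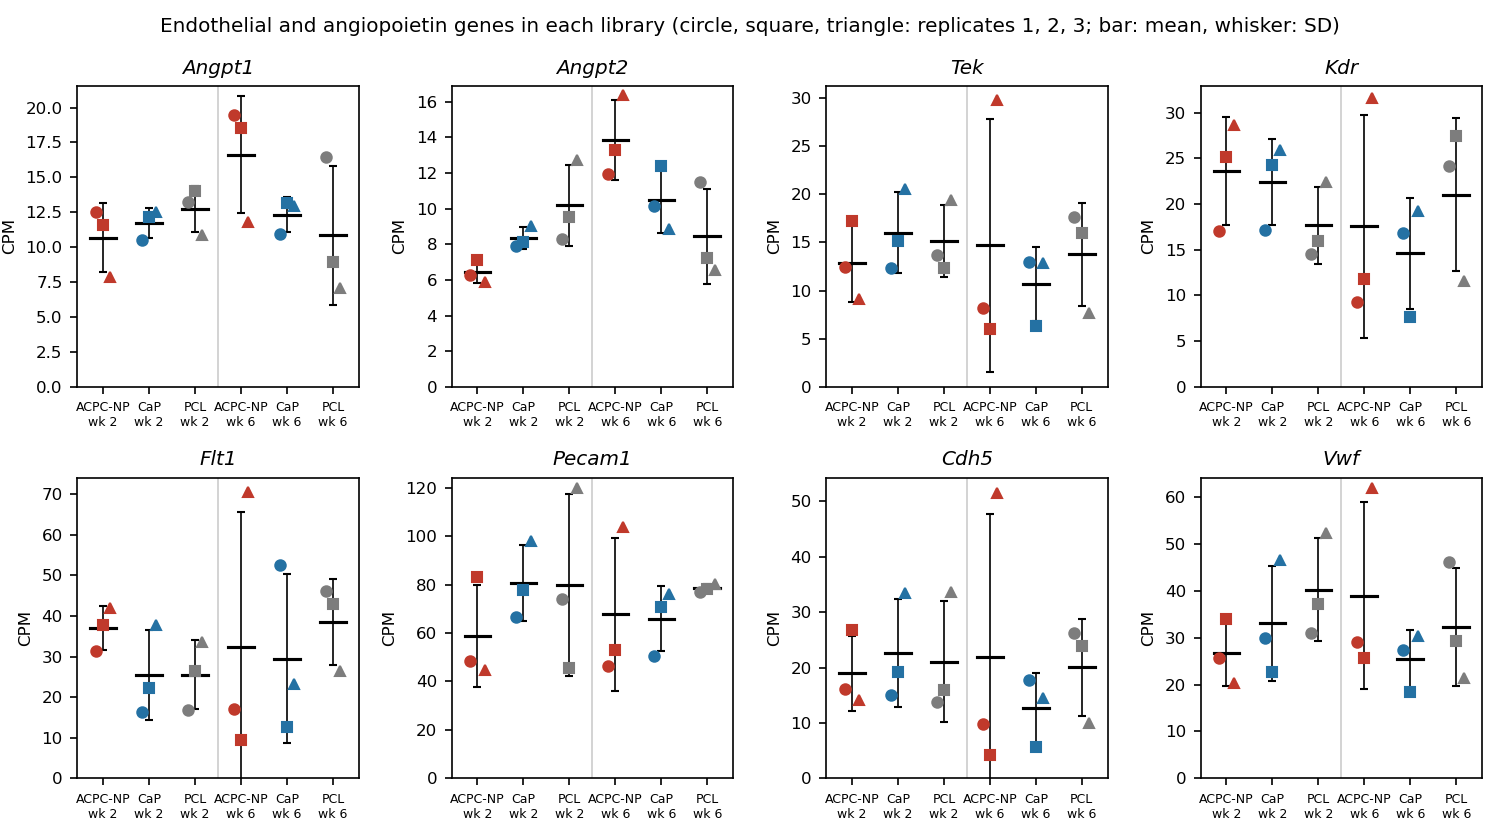
CPM of each of the 8 genes (vertical axes, from 0) in the 18 libraries by scaffold and week (horizontal axis), with the group mean as a bar and the SD as a whisker, cut at 0 where it is wider than the mean. For Angpt2 the ACPC-NP points lie between 5.89 and 7.14 CPM at week 2 and between 11.9 and 16.3 CPM at week 6, while for Cdh5 and Flt1 the third ACPC-NP library of week 6 sits far above its fellows.

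Angpt1, the ligand that activates Tek, was less distinct. ACPC-NP libraries held 12.6, 11.6 and 7.86 CPM at week 2 and 19.5, 18.6 and 11.8 CPM at week 6. CaP libraries held 10.5, 12.1 and 12.5 CPM at week 2 and 10.9, 13.2 and 12.95 CPM at week 6. PCL libraries held 13.3, 14.1 and 10.9 CPM at week 2 and 16.5, 8.95 and 7.09 CPM at week 6. ACPC-NP at week 6 had the top mean of the 6 groups (16.6 ± 4.18 CPM, SD, n = 3) and ACPC-NP at week 2 the bottom one (10.7 ± 2.48 CPM), but all neighbours in the order overlapped. The week 6 difference from PCL was 0.62 ± 0.27 (edgeR adjusted p = 0.207), the step with time around ACPC-NP 0.64 ± 0.27 (adjusted p = 0.217) and the interaction with PCL 0.87 ± 0.39 (adjusted p = 0.323). Against the mean of the other scaffolds at week 6 it was 0.52 ± 0.23 (adjusted p = 0.222). Over the 3 scaffolds, week 6 minus week 2 was 0.16 ± 0.16 (adjusted p = 0.67). Without the first PCL library of week 6, that step was 0.02 and the week 6 difference from PCL 1.04. That difference was 0.42 without the third PCL library of week 6. Without the library that stood apart, the step with time around ACPC-NP was 0.48 and the interaction 0.72.

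By edgeR, 0 of 8 genes passed in each of the 14 comparisons. All genes tested passed as rarely in 11 of them, where 0% were called, and in 3 the share called was 4.99% (ACPC-NP against the mean of the others at week 2), 0.00846% (week 6 against week 2 around ACPC-NP) and 0.686% (week 6 against week 2 over the 3 scaffolds). At an unadjusted p under 0.05, the count of the 8 was 2 for ACPC-NP against PCL and against the mean at week 6, for the step with time around ACPC-NP and for the interaction with PCL; it was 1 for ACPC-NP against PCL and against the mean at week 2, for time over the 3 scaffolds and for the interaction with CaP; elsewhere it was 0. Each of these was Angpt2, joined by Angpt1 where the count was 2. The share of all tested genes with such a p was 15% to 21.9% where the count was 2 and 14.2% to 19.3% where it was 1, so a count of 1 or 2 among 8 genes was close to the background. Ranges that did not overlap were found for Angpt2 in 5 comparisons, which were ACPC-NP against PCL, CaP and their mean at week 2, ACPC-NP against PCL at week 6 and the step with time around ACPC-NP, and for Pecam1 in CaP against PCL at week 6. Over all tested genes, the share with separate ranges was 17%, 16.5%, 8.34%, 27.0% and 18.5% in the 5 comparisons, in that order, and 8.90% in CaP against PCL at week 6, so 1 of 8 genes was near or below most of these shares.

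The angiopoietin calls depended on the tool. DESeq2 called Angpt2 for ACPC-NP against PCL at week 6 (adjusted p = 0.0326), with 7.3% of all genes called, for the step with time around ACPC-NP (adjusted p = 0.000399), with 6.65% called, and for the interaction with PCL (adjusted p = 0.00839), with 1.09% called. Limma's voom with quality weights called Angpt1 and Angpt2 in those comparisons, where it called 34.3%, 11.7% and 16.5% of all genes, and for ACPC-NP against the mean at week 6, where it called 29.3%. In the other comparisons both tools called 0 of 8. Leaving out the first PCL library of week 6, which held the highest Angpt1 and Angpt2 of its group, edgeR called both against PCL at week 6 (15% of all genes called) and against the mean at week 6 (11.2% called), and Angpt2 in the interaction (0.519% called). Leaving out the first ACPC-NP library of week 2, it called Angpt2 for the step with time around ACPC-NP (7.38% called). Other omissions made the week 6 differences smaller. Without the third ACPC-NP library of week 6, Angpt2 differed by 0.58 from PCL and 0.42 from the mean (log2). Angpt1 differed by 0.42 from PCL without the third PCL library of week 6. It differed by 0.39 from the mean without the first ACPC-NP library of week 6.

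Within a library, the ratio of Angpt2 to Angpt1 reads needs no scaling. It ran from 0.502 to 0.750 around ACPC-NP at week 2 and from 0.612 to 1.38 at week 6. Around CaP it ran from 0.669 to 0.750 and from 0.681 to 0.944, and around PCL from 0.627 to 1.17 and from 0.698 to 0.928. The highest ratio, 1.38, was that of the third ACPC-NP library of week 6, in which Angpt2 was at its top and Angpt1 at the bottom of its group.

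**Figure D2:**
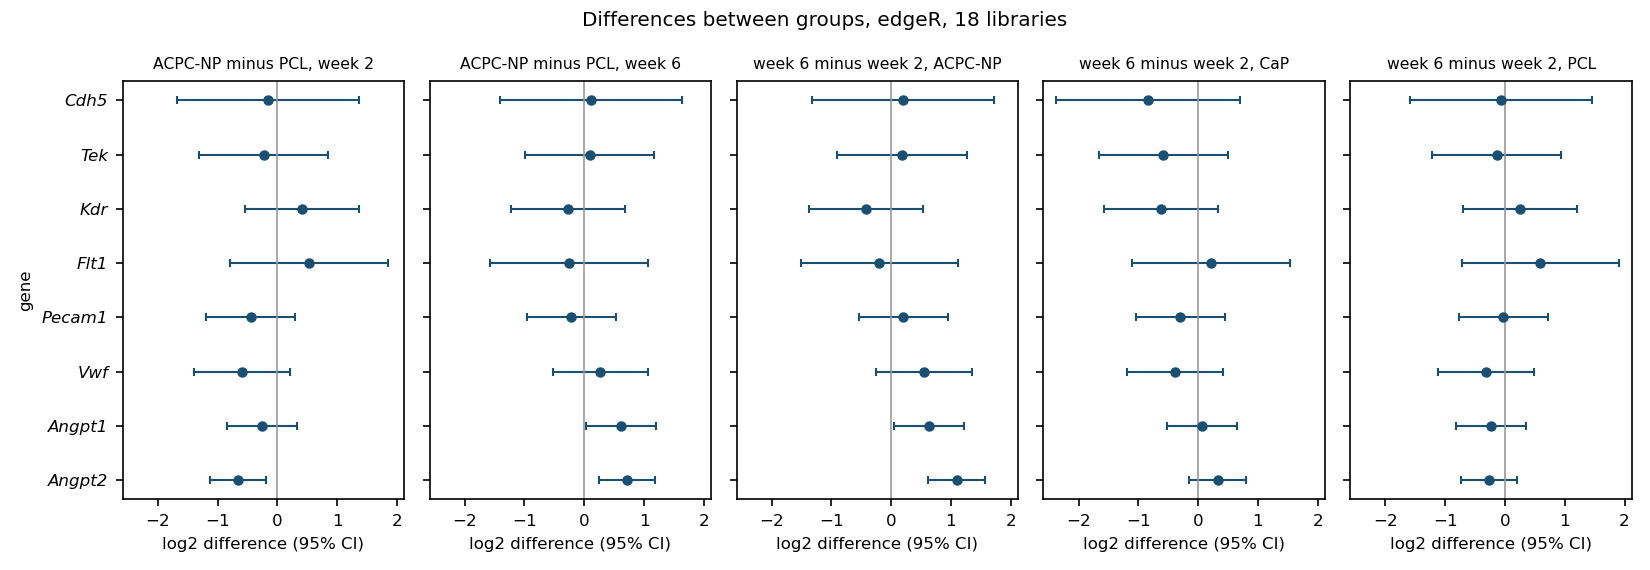
Log2 differences (horizontal axes) of the 8 genes (vertical axis) with 95% intervals in 5 comparisons, from the edgeR fit over 18 libraries. Angpt2 lies at -0.66 at week 2 and 0.71 at week 6 for ACPC-NP minus PCL, and the intervals of Cdh5 and Flt1 span more than those of the angiopoietins in each panel.

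Tek, the angiopoietin receptor, showed no scaffold or week at which all libraries were high. Its level was 12.4, 17.2 and 9.09 CPM around ACPC-NP at week 2 and 8.20, 6.00 and 29.8 CPM at week 6. With CaP the libraries gave 12.3, 15.1 and 20.6 CPM at week 2 and 12.97, 6.27 and 12.9 CPM at week 6. With PCL they gave 13.7, 12.4 and 19.4 CPM at week 2 and 17.6, 15.95 and 7.68 CPM at week 6. The lowest and the highest of the 18 values, replicates 2 and 3, were in 1 group, ACPC-NP at week 6. Week 6 minus week 2 over the scaffolds was -0.18 ± 0.29 (edgeR adjusted p = 0.805), with -0.53 without the third and -0.06 without the second ACPC-NP library of week 6. ACPC-NP minus PCL was -0.23 ± 0.51 at week 2 (interval -1.31 to 0.85) and 0.09 ± 0.51 at week 6 (interval -0.99 to 1.17), and both intervals held 0.

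Kdr, the main signalling receptor for vascular endothelial growth factor, was 17.04, 25.2 and 28.6 CPM around ACPC-NP at week 2 and 9.31, 11.8 and 31.6 CPM at week 6. Its values were 17.1, 24.3 and 25.95 CPM with CaP at week 2 and 16.8, 7.67 and 19.3 CPM at week 6. For PCL they were 14.6, 15.997 and 22.4 CPM at week 2 and 24.1, 27.4 and 11.5 CPM at week 6. The group means of Kdr ranged from 14.6 ± 6.11 CPM (CaP, week 6, SD, n = 3) to 23.6 ± 5.95 CPM (ACPC-NP, week 2), and all neighbours in the order overlapped. The fitted step with time over the scaffolds was -0.27 ± 0.26 (edgeR adjusted p = 0.66), with -0.51 without the third and -0.16 without the first ACPC-NP library of week 6.

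Flt1, the tight-binding and partly decoy receptor, was 31.3, 37.7 and 41.99 CPM around ACPC-NP at week 2 and 17.004, 9.52 and 70.5 CPM at week 6. CaP gave 16.4, 22.3 and 37.8 CPM at week 2 and 52.7, 12.5 and 23.3 CPM at week 6. PCL gave 16.7, 26.4 and 33.5 CPM at week 2 and 46.2, 42.8 and 26.5 CPM at week 6. At week 6 the ACPC-NP and CaP libraries covered the whole range of the other groups, and the 3 ACPC-NP values spread 7.41-fold. Its step with time over the scaffolds was 0.20 ± 0.36 (edgeR adjusted p = 0.825), and turned to -0.22 without the third ACPC-NP library of week 6. In the library that stood apart, Kdr (28.6 CPM) and Flt1 (42.0 CPM) were the highest of their group by scaled CPM. Tek (9.09 CPM), Cdh5 (14.1 CPM), Pecam1 (44.7 CPM) and Vwf (20.3 CPM) were the lowest. The place of Kdr and Flt1 depended on its TMM factor of 0.706. In replicates 1, 2 and 3 of that group, unscaled reads were 433, 638 and 510 for Kdr and 795, 957 and 748 for Flt1. Total counts were 24367545, 24824435 and 25217221. The reads of Flt1 per read of Kdr ran from 0.808 to 3.13 over the 18 libraries.

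Pecam1, which joins endothelial cells and also sits on platelets and leukocytes, was 48.3, 82.97 and 44.7 CPM around ACPC-NP at week 2 and 46.3, 52.9 and 104 CPM at week 6. Its CaP libraries held 66.8, 77.7 and 97.8 CPM at week 2 and 50.7, 70.7 and 76.2 CPM at week 6. Its PCL libraries held 74.1, 45.5 and 120.0 CPM at week 2 and 76.9, 78.3 and 80.1 CPM at week 6. The 3 PCL libraries of week 6 lay close together (78.4 ± 1.60 CPM, SD, n = 3) and all above the 3 CaP ones (65.9 ± 13.5 CPM). That difference was -0.25 ± 0.35 (edgeR adjusted p = 1), and the step with time over the scaffolds was -0.04 ± 0.20 (adjusted p = 0.952), with 0.10 without the third PCL library of week 2.

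Cdh5, the cadherin of endothelial junctions, was 16.1, 26.7 and 14.1 CPM around ACPC-NP at week 2 and 9.78, 4.20 and 51.5 CPM at week 6. The CaP values were 15.05, 19.2 and 33.5 CPM at week 2 and 17.8, 5.62 and 14.4 CPM at week 6. The PCL values were 13.7, 15.9 and 33.6 CPM at week 2 and 26.3, 23.9 and 10.1 CPM at week 6. The lowest and highest of the 18 libraries were again both ACPC-NP at week 6, 12.3-fold apart, from 93 and 990 reads. Over the scaffolds the step with time was -0.24 ± 0.41 (95% interval -1.12 to 0.64, edgeR adjusted p = 0.824). It was -0.78 without the third ACPC-NP library of week 6 and -0.07 without the third PCL library of week 2.

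Vwf, the platelet-tethering protein stored in endothelial granules and in megakaryocytes, was 25.7, 33.95 and 20.3 CPM around ACPC-NP at week 2 and 29.2, 25.8 and 62.04 CPM at week 6. In CaP libraries it was 29.9, 22.8 and 46.7 CPM at week 2 and 27.4, 18.4 and 30.4 CPM at week 6. In PCL libraries it was 31.1, 37.2 and 52.4 CPM at week 2 and 46.1, 29.4 and 21.4 CPM at week 6. All groups overlapped their neighbours. The step with time was -0.05 ± 0.22 over the scaffolds (edgeR adjusted p = 0.936) and 0.55 ± 0.38 around ACPC-NP (adjusted p = 0.459). The first of these was 0.06 without the third CaP library of week 2. Bulk RNA cannot tell fewer cells of a type from less RNA per cell, for this gene or any other here.

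The 6 endothelial genes differed widely between libraries of the same group. Pooled within groups, the SD of log2 CPM was 0.98 for Cdh5, larger than that of 96.7% of tested genes, 0.83 for Flt1, 0.67 for Tek, 0.60 for Kdr, 0.50 for Vwf and 0.46 for Pecam1. The SD was 0.35 for Angpt1 and 0.27 for Angpt2, the latter close to the median gene at 0.26. For Cdh5 it was 0.59 at week 2 and 1.25 at week 6, and for Flt1 0.47 and 1.07, while the median tested gene had 0.27 and 0.22. Pecam1 ran the other way, 0.52 and 0.40. The third ACPC-NP library of week 6 held the highest value of all 18 libraries for 6 of the 8 genes. Set against the mean of its 2 fellow libraries it was 7.37-fold higher for Cdh5, 5.32 for Flt1, 4.20 for Tek, 3.00 for Kdr, 2.26 for Vwf, 2.09 for Pecam1 and 1.30 for Angpt2, but 0.621 for Angpt1. The second libraries of ACPC-NP and of CaP at week 6 held the lowest value of all 18 for 3 and 2 of the genes.

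**Figure D3:**
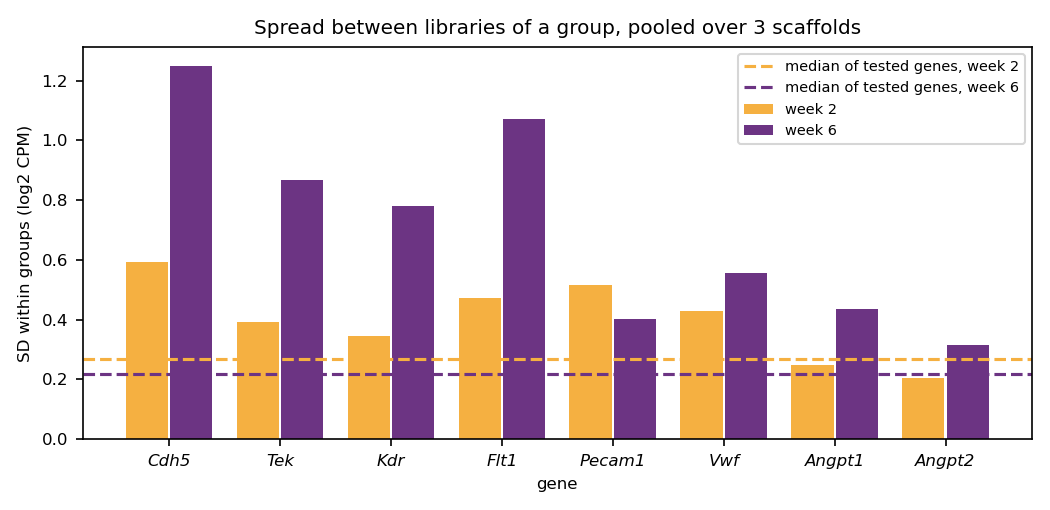
SD of log2 CPM between libraries of a group (vertical axis), pooled over the 3 scaffolds, for each gene (horizontal axis) at week 2 and at week 6, with the median of all tested genes as dashed lines. Cdh5 stands at 0.59 and 1.25, and Angpt2 at 0.20 and 0.31.

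Levels of the 6 endothelial genes varied together over the 18 libraries and within week 6, while several pairs had r near 0 within week 2. Over 18 libraries Pearson's r of log2 CPM was 0.97 for Tek with Cdh5, 0.84 for Kdr with Cdh5, 0.84 for Flt1 with Cdh5, 0.77 for Kdr with Flt1 and 0.82 for Tek with Vwf. Without the library that stood apart, these pairs gave 0.98, 0.89, 0.87, 0.76 and 0.81, in that order. Tek with Kdr gave 0.81 over all 18 and 0.92 without it. Over the 15 pairs of the 6 genes it ran from 0.28 (Flt1 with Pecam1) to 0.97, with a median of 0.73, and after centring on group means the median was 0.82. Within the 9 libraries of week 2 these pairs ran from -0.06 (Kdr with Vwf) to 0.90 with a median of 0.53, and within the 9 of week 6 from 0.46 to 0.98 with a median of 0.83. Tek with Kdr gave 0.22 at week 2 and 0.93 at week 6, and Tek with Flt1 gave 0.17 and 0.91, while Tek with Cdh5 gave 0.90 and 0.98. The difference between the weeks was not tested, and the values within week 2 were not computed without the library that stood apart. No r given here or below was computed without the third ACPC-NP library of week 6. That library held the highest Tek, Kdr, Flt1, Cdh5 and Vwf of all 18. How far the r over 18 libraries and within week 6 depended on it was not tested. Of the 12 pairs of an angiopoietin with one of these genes the median was -0.10, and 0.22 after centring. Angpt2 gave 0.03 with Cdh5 and 0.60 with Angpt1. These values are descriptions over libraries that share their groups, their scaling and 1 library that stood apart.

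**Figure D4:**
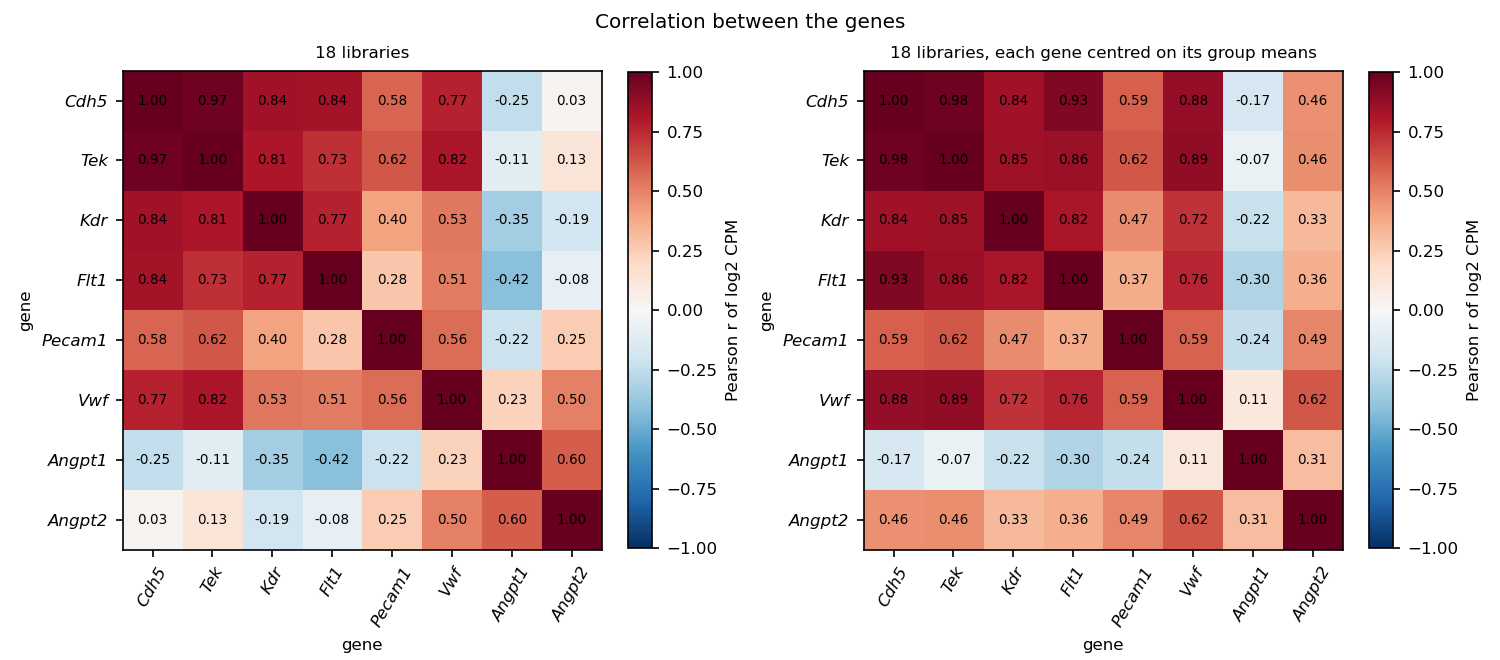
Pearson r of log2 CPM between each pair of the 8 genes (both axes), over 18 libraries on the left and after subtracting group means on the right. Tek and Cdh5 reach 0.97 on the left and 0.98 on the right, and Angpt2 with Cdh5 is 0.03 on the left and 0.46 on the right.

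The genes most like each of the 8, among 9825 candidates, differed between the endothelial genes and the angiopoietins. Cdh5 was closest to Prkcdbp (r = 0.97), Ace (0.97) and Ehd2 (0.97), and Tek to Ace (0.97), Notch3 (0.95) and Tspan9 (0.95). Prkcdbp and Ehd2 encode proteins of caveolae, Ace is the angiotensin-converting enzyme of endothelial surfaces, and Notch3 is a receptor of mural cells. Kdr was closest to Dock6 (0.93), Esam (0.93) and Flt4 (0.91), of which Esam is an endothelial adhesion molecule and Flt4 the lymphatic growth factor receptor, and Flt1 to Pacsin3 (0.93), Phldb1 (0.92) and Adcy3 (0.91). Vwf was closest to Mylk (0.92), the smooth muscle light chain kinase, Mecom (0.89), a regulator of blood stem cells, and Tspan9 (0.87). Pecam1 had lower maxima: Arhgef7 (0.79), St5 (0.76) and Cav2 (0.74). Angpt1 was closest to Nr3c2 (0.93), the mineralocorticoid receptor, Mettl24 (0.92) and Sort1 (0.91). Angpt2 was closest to Camk2b (0.82) and to the mast cell protease family genes Mcpt8 (0.79) and Mcpt9 (0.79). Mcpt8 held 68.2 ± 9.97 CPM around ACPC-NP at week 2 and 124 ± 26.4 CPM at week 6 (SD, n = 3 each). After centring on group means, r with Angpt2 was lower: 0.68 for Camk2b, 0.63 for Mcpt8 and 0.44 for Mcpt9. The genes named for Cdh5 each kept 0.98. For scale, the median candidate had r of -0.04 with Cdh5 and -0.07 with Angpt2.

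Lists of other genes were set beside the members. Each list's score is the mean over its genes of centred log2 CPM. The pan-endothelial score of 29 genes, which holds none of the 8, had r of 0.98 with Cdh5, 0.97 with Tek, 0.90 with Kdr, 0.80 with Flt1, 0.75 with Vwf, 0.55 with Pecam1 and -0.02 with Angpt2. The mural cell score (12 genes of pericytes and smooth muscle) had r of 0.95 with Cdh5 and 0.93 with Tek, and the marrow stroma score (7 genes) 0.87 and 0.90. The third ACPC-NP library of week 6 was high in all 3 lists (0.98, 1.37 and 1.01 log2 units above the mean of 18 libraries). The mural genes together summed to 371 CPM in it and to 44.3 and 56.8 CPM in its fellow libraries. Their part in the spread of the endothelial genes was not tested. The megakaryocyte score (7 genes) had r of -0.06 with Cdh5 and 0.17 with Vwf, and the blood stem cell score (6 genes) 0.83 with Vwf and 0.65 with Angpt2. Without the library that stood apart, the blood stem cell score gave 0.81 with Vwf and 0.57 with Angpt2. Its genes are not exclusive: Cd34 is also on the pan-endothelial list, and Mecom was among the genes most like Vwf. Of defining markers, Robo4 had 0 to 1 reads and Prox1, the lymphatic regulator, 1 to 7 reads per library, and Gp1bb, a platelet receptor subunit, was listed at 0 in every library.

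**Figure D5:**
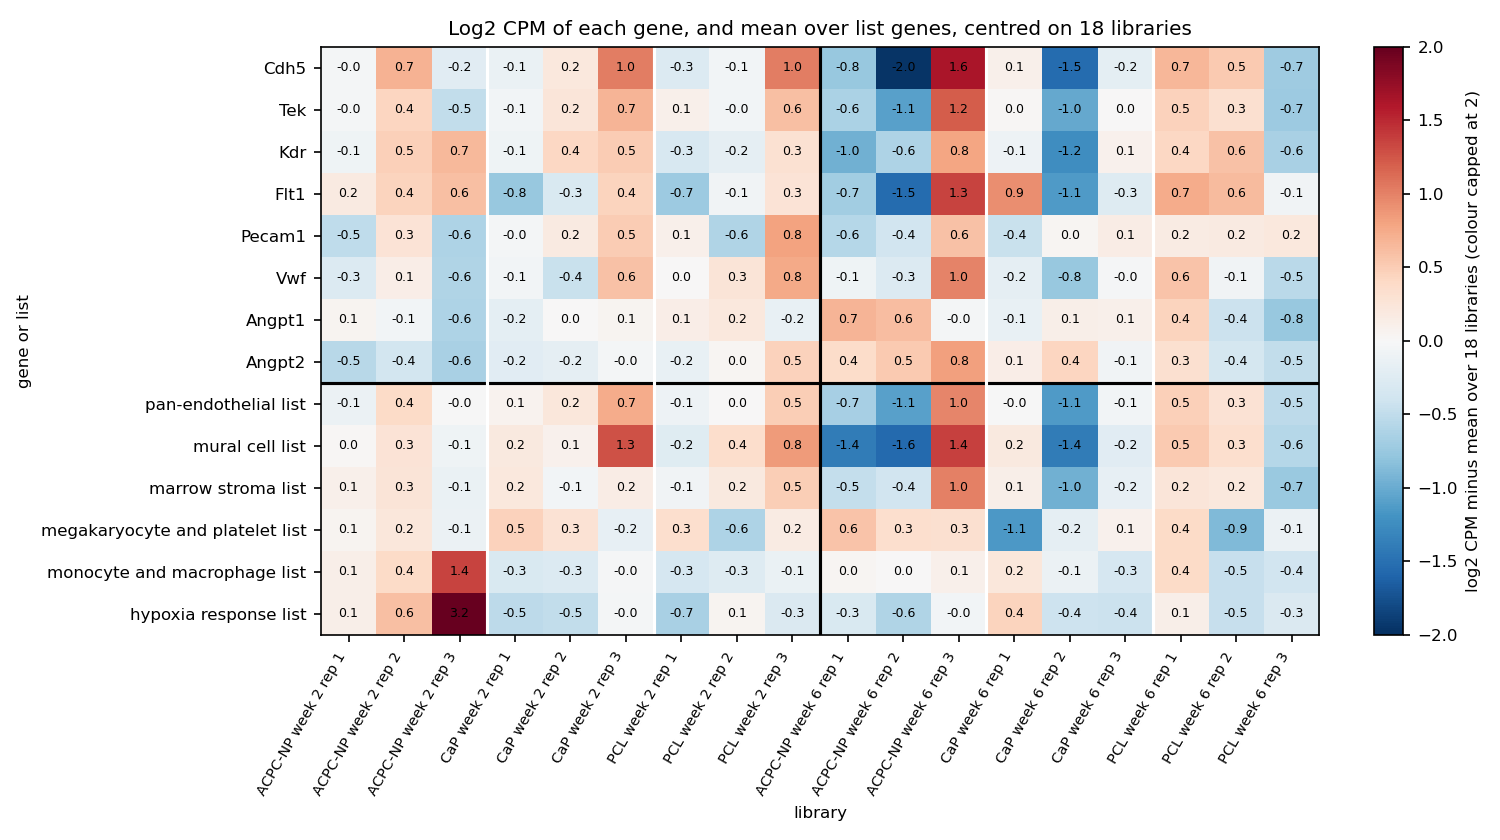
Log2 CPM of each of the 8 genes and the mean over the genes of 6 lists (vertical axis), minus the mean of the 18 libraries (horizontal axis), with the value printed in each cell. Cdh5, Tek, Kdr and Flt1 and the pan-endothelial, mural and marrow stroma lists share high values in the third ACPC-NP library of week 6 and low values in the second CaP library of week 6, while Angpt2 is above its mean in both.

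The growth factor ligands, co-receptors and partners of these receptors gave 1 call. Of 12 tested genes of the pathway list, which holds none of the 8, Nrp2 alone passed, in ACPC-NP against the mean of the others at week 2 (log2 1.54 ± 0.31, edgeR adjusted p = 0.0147), beside 4.99% of all genes. Nrp2, a co-receptor for growth factors and semaphorins, was 69.2, 80.6 and 191 CPM around ACPC-NP at week 2, and 28.02 to 53.6 CPM in the 6 other libraries of that week. Vegfa, the main ligand of Kdr and Flt1, was 123, 152 and 976 CPM around ACPC-NP at week 2, with the third library far above the rest (log2 1.74 ± 0.52, adjusted p = 0.0712). The CaP and PCL libraries of week 2 gave 81.2 to 208 CPM for Vegfa. Pgf, a ligand of Flt1, was 1.85, 5.01 and 14.6 CPM in the same ACPC-NP libraries, and 1.92 to 6.59 CPM in the CaP and PCL libraries of week 2. Only the third ACPC-NP library, the one that stood apart, was above that range. Tie1, the partner receptor of Tek, held 103.6 ± 14.1 CPM around ACPC-NP at week 2 and 88.5 ± 21.9 CPM at week 6, with means of 91.8 to 108 CPM in the other groups. Foxo1, the transcription factor that Tek signalling restrains, was 81.0 CPM on average around ACPC-NP at week 6 and 156 CPM around PCL (log2 -0.95 ± 0.24, adjusted p = 0.0794).

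In that week 2 comparison, of genes on the other lists, Pdpn (lymphatic list, log2 4.86), Jag1 (arterial list, 2.69) and Pf4 (platelet list, 2.03) passed. So did 12 of 13 hypoxia genes, 6 of 9 monocyte and macrophage genes and the osteoblast gene Spp1. Passing genes were 1 of 4 on the lymphatic list, 1 of 8 arterial, 1 of 7 platelet and 1 of 8 osteoblast. Differences above 0 numbered 2 of 4, 2 of 8, 1 of 7 and 2 of 8, in that order. The medians of these lists were 0.48, -0.27, -0.28 and -0.20. The pan-endothelial list had 0 of 29 and the mural list 0 of 12 passing, with medians of -0.24 and -0.50 against -0.02 for all genes. All 23 calls of list genes in that comparison were lost without the third ACPC-NP library of week 2. In the step with time over the scaffolds, the pan-endothelial median was -0.28 and the mural median -0.52, against -0.02 for all genes and -0.05 for the 8 genes, and 0 of 29 and 0 of 12 passed. The osteoblast gene Col1a1, the main bone collagen chain, fell by 1.23 on the log2 scale (adjusted p = 0.035), 1 of 8 osteoblast genes, beside 0.686% of all genes.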

How the data were processed

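Polyadenylated RNA was sequenced in 18 libraries, 3 for each of 3 scaffolds at 2 and 6 weeks. The deposited table holds whole-number read counts per gene symbol, not normalised, made by the authors. Per the submitters' processing notes, the tools were bcl2fastq 2.20.0, STAR 2.7.9a and featureCounts of Subread 2.0.1, with build Rnor_6.0. Annotation and strandedness: not given in the sources used here. A second deposited table, of normalised values, was not used.

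Counts were analysed in R 4.3.3 with edgeR 4.0.16: filterByExpr (minimum count 10, minimum total 15), which kept 11814 genes with 99.98% of counts, TMM, and a robust quasi-likelihood fit with a term per group over all 18 libraries (12 residual degrees of freedom). P-values were adjusted by Benjamini-Hochberg over all genes in each of 14 comparisons, with a threshold of 0.05. Log2 CPM used a prior count of 2. Total counts were 18880604 to 27186587 per library, and the common biological coefficient of variation was 26.0%. Duplicate libraries were not found (lowest within-group chi-square per degree of freedom 30.5).

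The 8 genes, the 12 lists and the comparisons were chosen with earlier results of these data known. Of 140 list entries, 125 were in the table, 1 of them under an older symbol (Figf for Vegfd), and 120 were tested. Every one of the 8 genes is named in each library. Its difference is given for time over the 3 scaffolds, and elsewhere for genes past the threshold or, up to 4, with the smallest unadjusted p under 0.05; some intervals of other genes are added. From the lists, up to 4 passing genes or, where none passed, up to 2 with the smallest p were eligible to be named; Vegfa, Pgf and Tie1 were named for their roles, with values seen. The 3 genes with the highest Pearson r were named for likeness, among genes with mean log2 CPM of at least 1.

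On simulated ACPC-NP against PCL counts at week 2 (11747 genes), edgeR found 66 of the 100 genes given a 2-fold shift, 95 of the 100 given a 4-fold shift, and made 7 false calls. The shifted genes were drawn only from those above a floor of expected reads, and no library was simulated to stand apart. The measured comparison called 0 of 11814 genes, so these rates may be higher than those in the measured data. Alternatives were DESeq2 1.42.0, voom with quality weights (limma 3.58.1), edgeR with DESeq2 size factors, edgeR unfiltered, a fit of the compared groups alone, a replicate term and leaving out each library.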

Additional observations from a re-analysis of the deposited data

Results flagged for a closer look

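Angpt2 is given here because its ACPC-NP and PCL libraries did not overlap at either week and lay in opposite order. All 3 ACPC-NP libraries were below the 3 PCL libraries at week 2 and above them at week 6. ACPC-NP minus PCL was -0.66 at week 2 and 0.71 at week 6 on the log2 scale, and the change between them was 1.37 (edgeR interaction term, unadjusted p = 0.000554, adjusted p = 0.278 over all genes), so it did not pass adjustment. Over all tested genes, 17% separated ACPC-NP from PCL at week 2 and 27.0% at week 6, in either direction. The share that separated at both weeks in opposite order was not computed. The interaction p-value comes from the same libraries whose separation picked Angpt2.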

How the results depend on the processing

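With edgeR, 0 of the 8 genes passed in any comparison. DESeq2 gave 1 for ACPC-NP against PCL at week 6, 1 for week 6 against week 2 around ACPC-NP and 1 for the interaction with PCL, and voom gave 2 in each of these and 2 for ACPC-NP against the mean at week 6. Leaving out each library, the count ran from 0 to 2 for ACPC-NP against PCL and against the mean at week 6 (2 without the first PCL library of week 6), and from 0 to 1 for the step with time around ACPC-NP (1 without the first ACPC-NP library of week 2) and for the interaction with PCL (1 without the first PCL library of week 6). The cause was not tested. Genes of the lists called for ACPC-NP against the mean at week 2 numbered 23, with 9 under the replicate block, 0 with only the groups compared, and 0 to 25 leaving out each library. They numbered 0 without the third ACPC-NP library, 8 without the first or the second CaP library or the first PCL library, 15 without the second PCL library and 11 without the third. Over all genes, that comparison called 590, 239 under the replicate block, 10 without the third ACPC-NP library, 1016 with DESeq2 and 889 with voom. Week 6 minus week 2 over the scaffolds changed sign for Flt1 (0.20, to -0.19 with voom, -0.22 to 0.35 leaving out each library), for Pecam1 (-0.04, from -0.19 to 0.10) and for Vwf (-0.05, from -0.22 to 0.061). Of 343 values of named genes, 310 kept direction and side of the threshold, 17 gained a call and 16 changed sign. The replicate block changed no call of the 8 genes. Replicate numbers did not pair libraries: 1 of 15 group pairs had every correlation over 0.1 (from -0.327 to 0.420). In 14 of 45 cases a library correlated best with its own number in the other group, with the same libraries counted repeatedly. In the column headers, the week 6 libraries continue the numbering of week 2. Low reads limit Prox1, Robo4 and Angpt4.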
